A study of Mus musculus with 6 samples.

Results

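The 39 genes described here encode the Fanconi anaemia pathway, the enzymes of homologous recombination and the kinases and adaptors of the replication checkpoint. They were taken as the rows of the count table whose symbol equals a listed name. All 39 listed symbols were found among the 55418 symbols of the table, and all 39 passed the filter on low counts, among 15199 genes tested. Polyadenylated RNA was sequenced from 6 samples of MOC2, a mouse oral squamous carcinoma line labelled free of papillomavirus. In 3 samples the cells are labelled CRISPR control, and in the other 3 they are labelled EphA4 knockout and come from a single clone named H3. All 6 samples shared a medium with serum, EGF, hydrocortisone and insulin, were thawed and passaged 2 times before harvest, received no treatment and carry 1 batch label. The age and sex of the mouse of origin are not given in the labels. Because the knockout group is 1 clone, a difference due to the edit and a difference between clones cannot be told apart.

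Cells use these genes to finish DNA replication when forks stall and to repair double-strand breaks by copying a sister chromatid. The Fanconi core complex attaches ubiquitin to the FANCD2 and FANCI pair at DNA crosslinks, BRCA1 and BRCA2 with their partners prepare resected ends for strand invasion, and ATR with its activators signals through the kinase CHK1 to hold the cell cycle. Many of the genes are transcribed mainly in S phase, when their products are needed, and carcinoma lines that divide fast express most of them.

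Libraries held 35115926 to 41775031 counts, so that 1 count equals 0.0239 to 0.0285 CPM (counts scaled to library size, here with TMM factors). EphA4 knockout replicate 3 stood apart from the others of its group: chi-square per degree of freedom was 34.1 and 35.1 for its pairs within the group, against 4.63 to 9.54 for the other pairs within a group. Transcripts of Epha4 itself were higher under the knockout label, not lower, with 99.7 ± 3.27 CPM against 55.1 ± 4.26 CPM in control (SD, n = 3 each). The log2 fold change of Epha4 was 0.86, and gene-level counts carry no information on the edit itself. All directions below compare the knockout-labelled with the control libraries. Of 7 epithelial markers, Krt8, Krt18, Epcam and Cdh1 were abundant in both groups, although Epcam fell from 954 ± 30.6 to 627 ± 15.9 CPM (SD, n = 3 each; summed level of the list 3839 to 3889 CPM in control and 4010.5 to 4054 CPM in the knockout-labelled libraries), while the basal squamous markers Krt5 and Trp63 stayed under 1 CPM in all 6 libraries. Krt14, the third basal marker, fell from 3.72 ± 0.26 to 1.83 ± 0.60 CPM (SD, n = 3 each). Summed fibroblast markers had 48.0 to 51.4 CPM in control and 1.93 to 2.03 CPM in the knockout-labelled libraries. All 5 tested of 7 were lower, and Lum was at 0 in all libraries. Col1a2, too low to be tested, went the other way, at 0.044 CPM in control and 0.265 CPM in the knockout-labelled libraries (means). The summed leukocyte markers had 17.5 to 19.8 CPM in control and 4.31 to 4.82 CPM in the knockout-labelled libraries, nearly all of it from Cd68, with 18.2 ± 1.32 and 4.24 ± 0.39 CPM (SD, n = 3 each) and called lower. The other 6 stayed under 1 CPM, and 3 of them, among them Itgam and Cd3e, were at 0 in every library. Of 4 endothelial markers 3 stayed under 1 CPM. The part of these transcripts in the members' values was not tested.

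Most of the 39 genes were higher in the knockout-labelled libraries, with a fork-remodelling motor, an exonuclease and a checkpoint adaptor in the lead and a smaller set, among them Rad51b, Rad51c, Rad50 and Chek2, going down. Of the 39 genes, 24 rose and 8 fell at an adjusted p of 0.05 or less in edgeR's quasi-likelihood test, and 7 did not pass. The members' shares are 61.5% higher and 20.5% lower, and over all tested genes 32.7% rose and 38.8% fell, 71.5% in either direction. A call as such is therefore common in these libraries. The values of the groups did not overlap for 25 genes on the higher side and 8 on the lower side, against 34.6% and 41.4% of all tested genes (76.1% in either direction). The median log2 fold change of the 39 genes was 0.51, against -0.04 over all tested genes. Changes were moderate: 7 genes rose at least 2-fold (10.3% of all tested genes did) and 1 fell at least 2-fold (20.1% did). Together the 39 genes took 0.154%, 0.154% and 0.153% of the counts of the control libraries and 0.200%, 0.202% and 0.201% of those of the knockout-labelled ones. In bulk RNA, a larger share of cells in S phase and more transcript per cell cannot be told apart. No label states that replicates were grown as separate cultures, and if they were not, the p-values reflect technical spread alone. Without EphA4 knockout replicate 3, 26 genes rose and 7 fell.

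**Figure D1:**
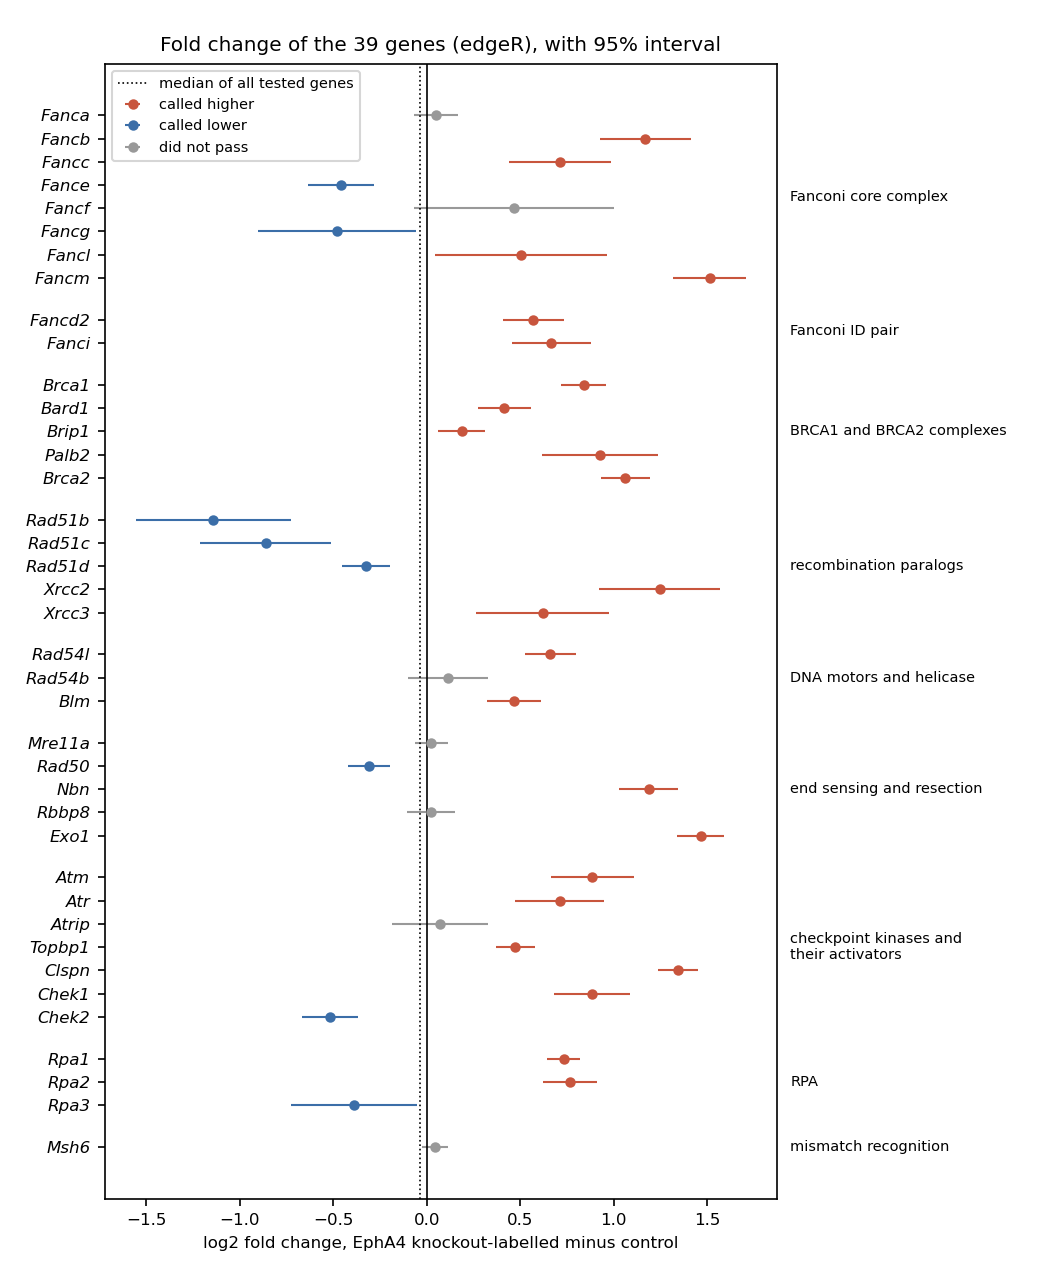
Log2 fold change of each of the 39 genes (x axis, knockout-labelled minus control), grouped by role, with the 95% interval from edgeR as a bar; red points were called higher, blue points lower, and grey points did not pass. The points run from -1.14 for Rad51b to 1.51 for Fancm, and most lie to the right of the median of all tested genes, drawn as a dotted line at -0.04.

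**Figure D2:**
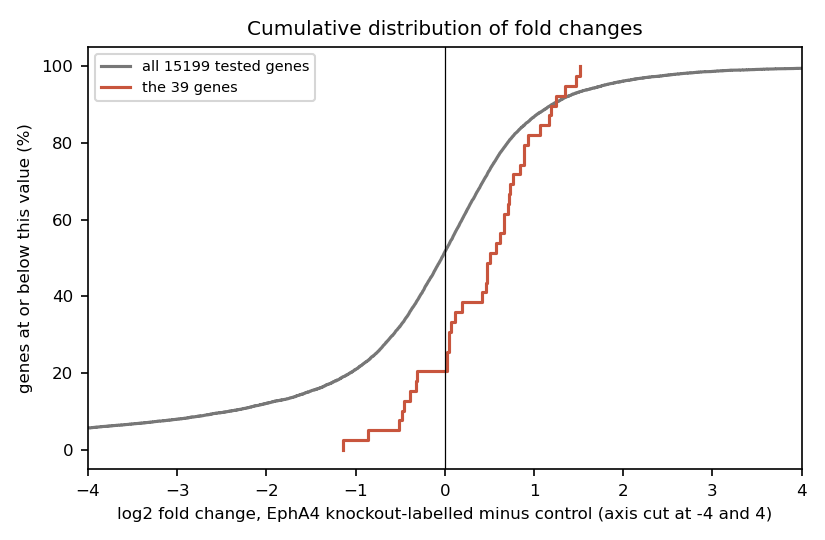
Cumulative percentage of genes (y axis) at or below each log2 fold change (x axis, shortened at both ends), for all 15199 tested genes in grey and the 39 genes in red. The red curve lies to the right of the grey one over most of the range, with medians of 0.51 and -0.04.

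Within the Fanconi core complex, the ubiquitin ligase of the pathway, 4 of 8 genes rose, 2 fell and 2 did not pass. For all tested genes the shares were 32.7% higher and 38.8% lower. Fancm, a translocase that anchors the complex to DNA and remodels forks, had 11.4, 13.2 and 14.0 CPM in the control libraries and 36.9, 35.9 and 37.5 CPM in the knockout-labelled ones. The lowest knockout-labelled value lay far above the highest control value in this gene, which had the largest rise of the 39 (2.86-fold, log2 fold change 1.51, SE 0.09, adjusted p = 5.7e-07). Fancb, an X-linked subunit of the catalytic module, had 9.41, 11.4 and 11.4 CPM in control and 26.0, 24.3 and 22.3 CPM in the knockout-labelled libraries (log2 fold change 1.17, SE 0.11, adjusted p = 1.1e-05). These groups too were well separated. Fancc, which joins FANCE and FANCF in the substrate-binding module, rose from 7.27 ± 0.32 to 11.9 ± 0.74 CPM (SD, n = 3 each; log2 fold change 0.71, SE 0.12). Its partner gene Fance fell, with 28.1, 27.3 and 28.3 CPM in control and 21.7, 20.9 and 18.4 CPM in the knockout-labelled libraries (log2 fold change -0.46, SE 0.08, adjusted p = 0.00068). The third gene of that module, Fancf, had a log2 fold change of 0.47 (95% interval -0.07 to 1.00) and did not pass, although it did without EphA4 knockout replicate 3 (0.66, adjusted p = 0.0045).

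The remaining core genes gave weak or no calls. Fancl, the ubiquitin ligase subunit itself, had after Fancf the lowest control CPM of the 39, at 3.99 ± 0.38 CPM in control and 5.68 ± 1.05 CPM in the knockout-labelled libraries (SD, n = 3 each; log2 fold change 0.51, SE 0.20, adjusted p = 0.048). That call was lost without any 1 of control replicates 1, 2 and 3 or EphA4 knockout replicates 1 and 2 (log2 fold change 0.53, 0.49, 0.63, 0.38 and 0.59). Fancg, a scaffold of the complex, fell from 6.96 ± 1.00 to 4.98 ± 0.68 CPM (log2 fold change -0.48, SE 0.19, adjusted p = 0.043), and its call was lost without any 1 of control replicates 1, 2 and 3 or EphA4 knockout replicates 2 and 3 (-0.32, -0.54, -0.45, -0.39 and -0.37). The calls of both genes were lost in 5 of the 6 fits that left out 1 library. Fanca, the most abundant core gene by level per length, had 75.3 ± 4.52 and 77.9 ± 2.16 CPM, a log2 fold change of 0.05 with a 95% interval of -0.07 to 0.17; without control replicate 1 it passed at 0.15 (adjusted p = 0.024). Exons of Fancl, Fancf, Fancc and Fanca overlap a gene on the opposite strand over 13.7%, 15.0%, 18.6% and 10.5% of their bases, and the strand setting of the counting is not given in the sources used here, so reads there cannot be assigned with certainty.

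The promoter of Fancm is shown because it belongs to the member with the largest rise. It is the RefSeq window on build GRCm38.p6, plus strand, from 250 bases before to 50 bases after the transcription start, in lower case, with matches of either strand to CCAAT, the box bound by NF-Y, in capitals. The single match starts at position -63 relative to the start site.
Fancm, chr12:65075353-65075652: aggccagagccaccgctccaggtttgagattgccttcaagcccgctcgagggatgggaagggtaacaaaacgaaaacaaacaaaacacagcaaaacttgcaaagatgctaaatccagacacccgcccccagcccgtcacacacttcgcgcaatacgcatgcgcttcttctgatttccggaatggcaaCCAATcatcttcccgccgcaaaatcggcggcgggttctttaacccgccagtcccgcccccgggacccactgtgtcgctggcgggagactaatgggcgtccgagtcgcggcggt

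The pair of genes for the substrates of the core complex rose together. Fancd2 had 21.1, 20.1 and 19.5 CPM in control and 30.2, 28.3 and 31.7 CPM in the knockout-labelled libraries (log2 fold change 0.57, SE 0.07, adjusted p = 9.3e-05). Fanci had 15.3, 14.8 and 13.0 CPM in control and 21.2, 23.8 and 23.3 CPM in the knockout-labelled libraries (log2 fold change 0.67, SE 0.09, adjusted p = 0.00019). Neither gene had overlapping groups, which also held for 76.1% of all tested genes in either direction. The ratio of Fancd2 to Fanci within a library, which does not depend on scaling, was 1.42 ± 0.08 in control and 1.32 ± 0.12 in the knockout-labelled libraries (SD, n = 3 each), with overlapping ranges. Exons of Fanci overlap Polg on the opposite strand over 16.0% of their bases.

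All 5 genes of the BRCA1 and BRCA2 complexes rose, and none of their groups overlapped. Over all tested genes 32.7% rose, and 76.1% had no overlap in either direction. Brca1, whose product promotes resection and recruits PALB2, had 41.2, 44.5 and 41.0 CPM in control and 77.0, 77.3 and 72.6 CPM in the knockout-labelled libraries (1.79-fold, log2 fold change 0.84, SE 0.05, adjusted p = 1.0e-06). Brca2, the central mediator of recombination, had 26.3, 29.5 and 27.6 CPM in control and 58.2, 58.6 and 57.3 CPM in the knockout-labelled libraries (2.09-fold, log2 fold change 1.06, SE 0.06, adjusted p = 4.3e-07). Palb2, the bridge between the 2 proteins, was scarce at 7.98, 6.51 and 6.17 CPM in control and rose to 13.1, 13.5 and 12.7 CPM (log2 fold change 0.93, SE 0.14, adjusted p = 0.00025). The knockout-labelled values of Brca2 and Palb2 were tightly grouped, and the ratio of Palb2 to Brca2 was 0.249 ± 0.047 in control and 0.226 ± 0.0045 in the knockout-labelled libraries, with overlapping ranges. Bard1, the obligate partner of BRCA1 in its ubiquitin ligase, rose less than Brca1, from 37.6 ± 1.99 to 50.2 ± 2.44 CPM (log2 fold change 0.42, SE 0.06, adjusted p = 0.00027). The ratio of Brca1 to Bard1 was 1.03, 1.23 and 1.12 in the control libraries and 1.45, 1.59 and 1.48 in the knockout-labelled ones. Brip1, a helicase that binds BRCA1, had the smallest rise of the 24, from 33.8 ± 0.65 to 38.5 ± 1.44 CPM (log2 fold change 0.19, SE 0.06, adjusted p = 0.013); with no filter on low counts the call was lost (0.12, adjusted p = 0.14).

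The promoter of Brca2 (GRCm38.p6, plus strand, same window) was chosen after the values were seen, as 1 of 2 rising members whose window holds the E2F-type letters TTTCCCGC; capitals mark the match, which lies on the opposite strand and starts at position -168.
Brca2, chr5:150522371-150522670: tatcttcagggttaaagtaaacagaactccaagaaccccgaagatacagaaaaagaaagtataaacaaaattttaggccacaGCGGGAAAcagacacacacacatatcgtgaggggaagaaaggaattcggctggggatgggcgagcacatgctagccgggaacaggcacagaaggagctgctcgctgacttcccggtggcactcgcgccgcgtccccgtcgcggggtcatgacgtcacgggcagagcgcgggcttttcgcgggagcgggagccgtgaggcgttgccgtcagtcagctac

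The 5 recombination paralogs, whose products work in small complexes that assist strand exchange, split by name: Rad51b, Rad51c and Rad51d fell and Xrcc2 and Xrcc3 rose. Rad51b had 8.79, 10.3 and 10.1 CPM in control and 4.34, 5.29 and 3.59 CPM in the knockout-labelled libraries, the largest fall of the 39 genes (2.21-fold lower, log2 fold change -1.14, SE 0.18, adjusted p = 0.00044). Rad51c, the subunit common to both paralog complexes, had 13.3, 15.9 and 12.8 CPM in control and 7.86, 6.37 and 8.85 CPM in the knockout-labelled libraries (1.82-fold lower, log2 fold change -0.86, SE 0.15, adjusted p = 0.00089). Rad51d fell less, from 38.2 ± 0.96 to 30.4 ± 1.10 CPM (SD, n = 3 each; log2 fold change -0.33, SE 0.06). The other two went the opposite way. Xrcc2, the partner of RAD51D, had 6.88, 7.62 and 9.69 CPM in control and 18.2, 20.9 and 18.3 CPM in the knockout-labelled libraries (2.37-fold, log2 fold change 1.25, SE 0.14, adjusted p = 5.0e-05). Xrcc3, the partner of RAD51C in the smaller complex, had 10.4, 7.96 and 7.05 CPM in control and 13.5, 13.3 and 12.2 CPM in the knockout-labelled libraries (log2 fold change 0.62, SE 0.16, adjusted p = 0.0062). None of the 5 genes had overlapping groups, and 76.1% of all tested genes had none in either direction. The summed level of the 5 genes was 77.5 to 79.2 CPM in control and 72.5 to 75.9 CPM in the knockout-labelled libraries.

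Ratios within a library show how far the balance of partner transcripts differed between the groups. Xrcc2 had 0.175, 0.203 and 0.256 counts per count of Rad51d in control, against 0.576, 0.693 and 0.620 in the knockout-labelled libraries, a 3.01-fold higher ratio. Xrcc3 had 0.777, 0.502 and 0.552 counts per count of Rad51c in control, against 1.72, 2.08 and 1.38 in the knockout-labelled libraries, a 2.84-fold higher ratio. In both pairs the lowest knockout-labelled ratio lay above the highest control ratio. The ratio of Rad51b to Rad51c overlapped between the groups, at 0.699 ± 0.080 and 0.596 ± 0.22 (SD, n = 3 each). The 12 pairs were chosen after the values of the single genes were seen, so the ratios are given with no test.

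**Figure D3:**
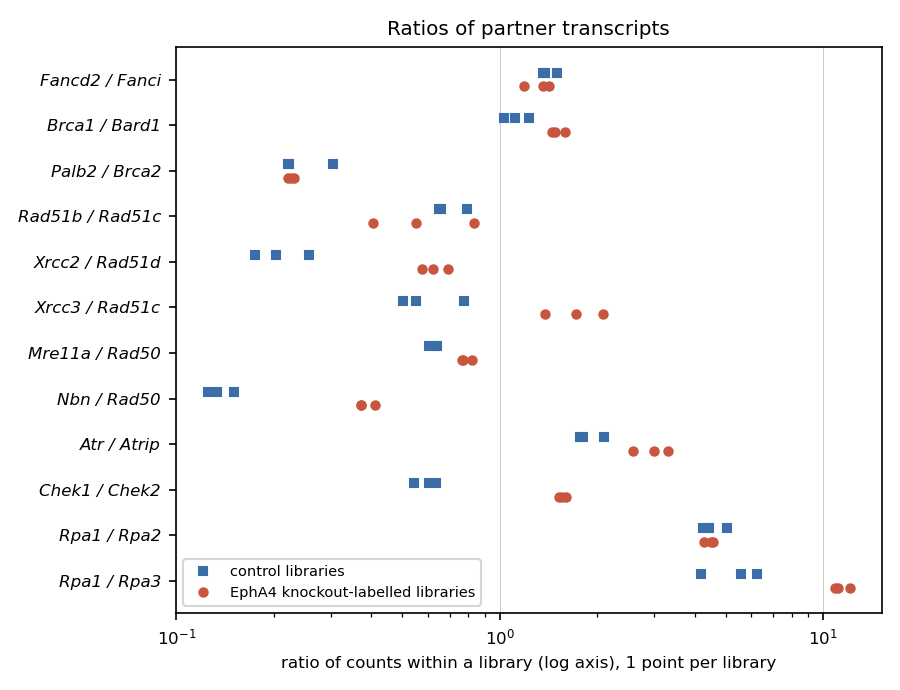
Ratio of the counts of 2 partner transcripts within each library (x axis, log scale), 1 point per library, blue squares for control and red circles for knockout-labelled libraries. The groups are apart for 8 of 12 pairs, from Mre11a over Rad50 (1.26-fold) to Xrcc2 over Rad51d (3.01-fold), and overlap for Fancd2 over Fanci, Palb2 over Brca2, Rad51b over Rad51c and Rpa1 over Rpa2.

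The promoter of Rad51b is shown for the member that fell furthest (GRCm38.p6, plus strand, the first of 2 overlapping windows in the table). Capitals mark CCAAT, here on the opposite strand from position -15, and TTTAAA, a form of the cell cycle homology region, from position -204.
Rad51b, chr12:79297032-79297331: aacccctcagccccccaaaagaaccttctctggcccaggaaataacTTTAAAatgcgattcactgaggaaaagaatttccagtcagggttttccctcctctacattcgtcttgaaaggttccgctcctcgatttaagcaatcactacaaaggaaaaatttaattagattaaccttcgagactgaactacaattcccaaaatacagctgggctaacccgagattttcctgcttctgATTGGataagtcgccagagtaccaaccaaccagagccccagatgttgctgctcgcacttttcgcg

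Of the motor and helicase genes that act in strand invasion and on joint molecules, 2 of 3 rose, against 32.7% of all tested genes. Rad54l, the main motor of strand invasion, had 21.6, 21.6 and 21.8 CPM in control and 33.9, 33.4 and 35.5 CPM in the knockout-labelled libraries (log2 fold change 0.66, SE 0.06, adjusted p = 1.0e-05). Blm, the helicase that dissolves double Holliday junctions, rose from 38.4 ± 2.50 to 53.1 ± 2.16 CPM (SD, n = 3 each; log2 fold change 0.47, SE 0.06). Rad54b, a relative of Rad54l, had overlapping groups at 17.6 ± 1.63 and 19.0 ± 1.03 CPM and a 95% interval of -0.10 to 0.33. Its exons share 35.9% of their bases with other gene models, among them Fsbp on the same strand, and those of Rad54l share 15.4% with Lrrc41 on the opposite strand.

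Among the genes of end sensing and resection, Exo1 and Nbn rose, Rad50 fell, and Mre11a and Rbbp8 did not pass. Exo1, the nuclease of long-range resection and mismatch repair, had 22.4, 23.3 and 21.5 CPM in control and 63.3, 60.4 and 62.1 CPM in the knockout-labelled libraries. The spread within each group was small beside that difference (2.76-fold, log2 fold change 1.47, SE 0.05, adjusted p = 5.4e-08). Nbn, the subunit of the MRN complex that binds ATM, had 17.4, 17.98 and 20.1 CPM in control and 41.9, 42.2 and 42.6 CPM in the knockout-labelled libraries (2.28-fold, log2 fold change 1.19, SE 0.07, adjusted p = 6.7e-07). Rad50, the ATPase of the same complex, fell, with 139, 135 and 134 CPM in control and 102, 113 and 115 CPM in the knockout-labelled libraries (log2 fold change -0.31, SE 0.05, adjusted p = 0.00045). The third subunit gene, Mre11a, encodes the nuclease and had 84.7 ± 0.89 and 86.2 ± 2.33 CPM, a log2 fold change of 0.02 with a 95% interval of -0.06 to 0.11. The subunits of 1 complex therefore gave 3 different outcomes, and Nbn had 0.125, 0.133 and 0.1504 counts per count of Rad50 in control, against 0.411, 0.372 and 0.372 in the knockout-labelled libraries. Rbbp8, which encodes the MRN cofactor CtIP, had 44.9 ± 1.87 and 45.7 ± 1.77 CPM (95% interval -0.10 to 0.15).

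Checkpoint genes rose in 5 of 7 cases, against 32.7% of all tested genes, and the effector kinase genes moved in opposite directions. Clspn, which encodes claspin, the adaptor that presents CHK1 to ATR, had 40.3, 39.3 and 41.0 CPM in control and 97.3, 104 and 105 CPM in the knockout-labelled libraries (2.54-fold, log2 fold change 1.34, SE 0.05, adjusted p = 3.9e-08). Chek1, the kinase of the replication checkpoint, had 17.8, 19.6 and 21.3 CPM in control and 33.1, 36.2 and 39.1 CPM in the knockout-labelled libraries (1.85-fold, log2 fold change 0.88, SE 0.09, adjusted p = 2.3e-05). Chek2, the kinase that ATM activates at breaks, fell, with 32.9, 32.5 and 33.6 CPM in control and 21.7, 23.2 and 24.3 CPM in the knockout-labelled libraries (1.43-fold lower, log2 fold change -0.52, SE 0.07, adjusted p = 9.6e-05). Chek1 was the scarcer of the pair in each control library and the more abundant in each knockout-labelled one by raw counts, with a ratio to Chek2 of 0.541, 0.603 and 0.634 against 1.53, 1.56 and 1.61. Per kilobase of the principal transcript, Chek1 had 5.15 CPM and Chek2 14.5 CPM in control, and 9.52 and 10.1 CPM in the knockout-labelled libraries.

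The apical kinase genes both rose. Atm had 27.9, 32.8 and 25.2 CPM in control and 49.3, 53.8 and 55.8 CPM in the knockout-labelled libraries (log2 fold change 0.89, SE 0.10, adjusted p = 3.7e-05), and Atr had 23.5, 31.4 and 28.8 CPM and 42.2, 48.2 and 46.7 CPM (log2 fold change 0.71, SE 0.10, adjusted p = 0.00026). Topbp1, the activator of ATR, was the most abundant of the 7 genes by CPM and rose from 177 ± 10.1 to 246 ± 5.88 CPM (SD, n = 3 each; log2 fold change 0.47, SE 0.05). Atrip, the obligate partner through which ATR reaches coated single-stranded DNA, did not pass, at 14.7 ± 1.65 and 15.5 ± 1.23 CPM (95% interval -0.19 to 0.33). Its exons overlap those of Trex1 on the same strand over 16.0% of their bases. The ratio of Atr to Atrip was 1.81, 2.09 and 1.78 in control, against 2.58, 3.00 and 3.32 in the knockout-labelled libraries.

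Promoters of 2 checkpoint genes are shown, both on the plus strand of GRCm38.p6. Clspn had the second largest rise among the members with a window and holds 2 CCAAT matches, on the opposite strand from positions -69 and -21. Chek2 was chosen after the values were seen because, like Brca2, it holds TTTCCCGC on the opposite strand, from position -152, while its level moved the other way; it also holds 2 CCAAT matches on that strand, from positions -186 and -26. Capitals mark these matches.
Clspn, chr4:126556730-126557029: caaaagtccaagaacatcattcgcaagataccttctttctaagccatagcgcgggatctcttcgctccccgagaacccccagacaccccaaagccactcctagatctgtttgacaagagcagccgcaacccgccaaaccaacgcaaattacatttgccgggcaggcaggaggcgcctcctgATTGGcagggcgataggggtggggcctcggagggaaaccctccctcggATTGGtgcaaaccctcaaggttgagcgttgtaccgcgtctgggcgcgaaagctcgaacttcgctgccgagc
Chek2, chr5:110839733-110840032: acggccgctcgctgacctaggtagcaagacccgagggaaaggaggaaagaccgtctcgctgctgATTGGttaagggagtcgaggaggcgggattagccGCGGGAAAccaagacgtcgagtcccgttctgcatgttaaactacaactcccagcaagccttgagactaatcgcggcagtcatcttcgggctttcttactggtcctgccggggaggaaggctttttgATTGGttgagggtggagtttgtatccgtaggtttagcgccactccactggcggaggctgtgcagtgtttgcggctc

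The RPA genes encode the 3 subunits of the complex that coats single-stranded DNA and carries ATRIP. Rpa1 had 115, 122 and 121 CPM in control and 205, 193 and 197 CPM in the knockout-labelled libraries (1.66-fold, log2 fold change 0.73, SE 0.04, adjusted p = 3.7e-07). Rpa2 had 27.0, 24.3 and 27.3 CPM in control and 45.4, 45.2 and 43.2 CPM in the knockout-labelled libraries (1.70-fold, log2 fold change 0.77, SE 0.06, adjusted p = 6.3e-06). The ratio of these 2 transcripts was 4.57 ± 0.41 in control and 4.45 ± 0.15 in the knockout-labelled libraries (SD, n = 3 each), with overlapping ranges. Rpa3, the smallest subunit, went down, with 20.6, 19.6 and 28.7 CPM in control and 18.9, 16.0 and 17.7 CPM in the knockout-labelled libraries (log2 fold change -0.39, SE 0.15, adjusted p = 0.040). Control replicate 3 was the high value, and the call was lost without it (-0.15, adjusted p = 0.25), as it was without control replicate 1 or EphA4 knockout replicate 1 or 2 (-0.42, -0.42 and -0.30). Rpa1 had 5.58, 6.26 and 4.20 counts per count of Rpa3 in control, against 10.9, 12.1 and 11.1 in the knockout-labelled libraries.

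Msh6, which encodes a mismatch-recognition protein, was the most abundant of the 39 genes per kilobase in both groups. It had 227, 231 and 231 CPM in control and 235, 241 and 235 CPM in the knockout-labelled libraries. Although these values did not overlap, the difference did not pass (log2 fold change 0.05, 95% interval -0.02 to 0.12, adjusted p = 0.20). It passed without control replicate 1 or 3 or EphA4 knockout replicate 3, with log2 fold changes of 0.09, 0.10 and 0.11.

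**Figure D4:**
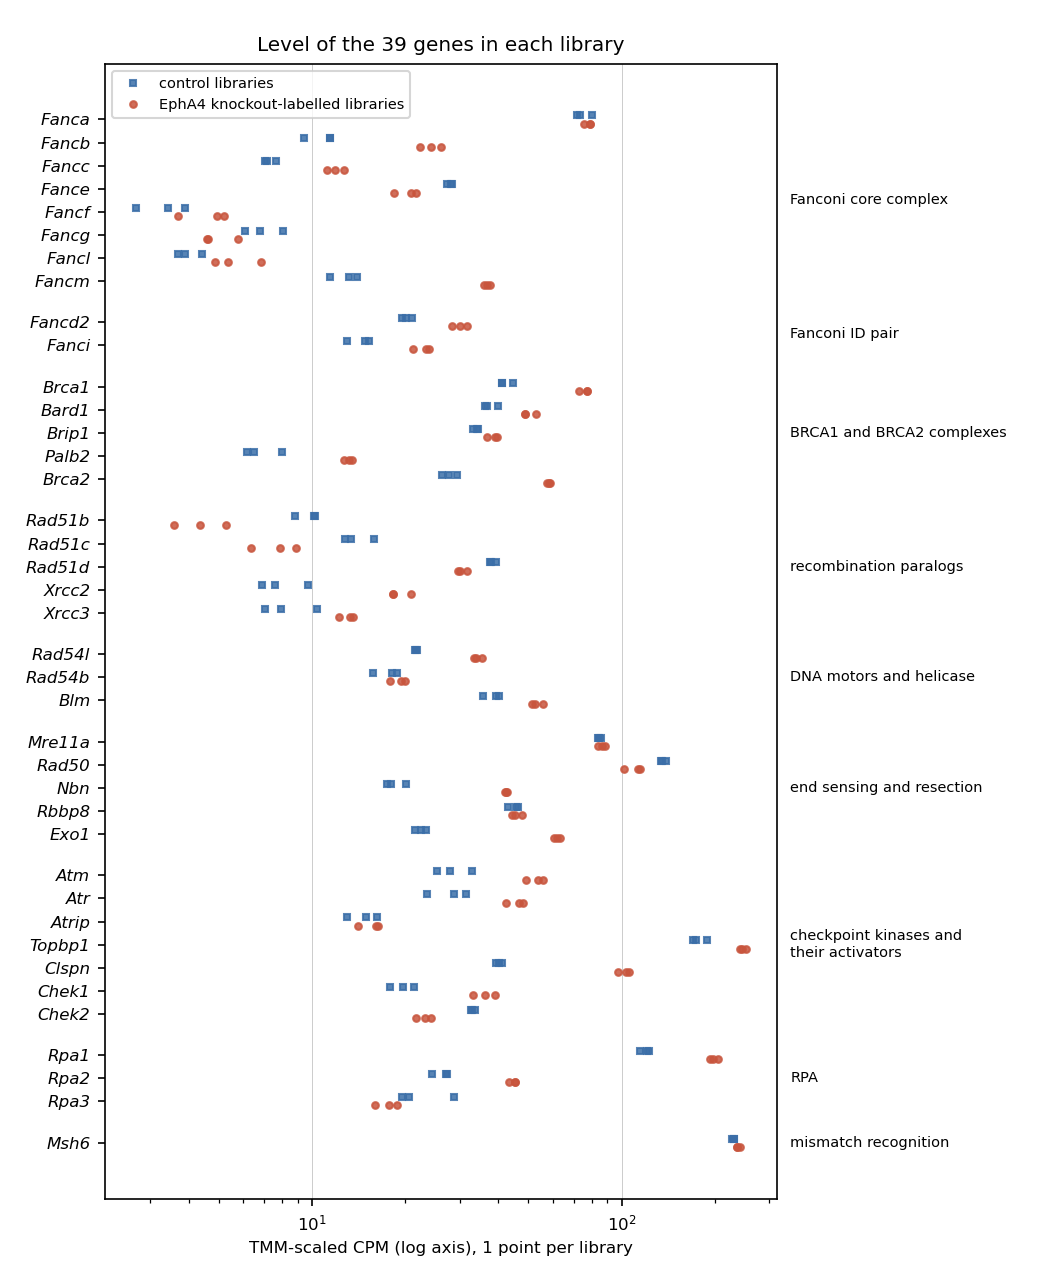
TMM-scaled CPM (x axis, log scale) of each of the 39 genes in each library, grouped by role, blue squares for the 3 control libraries and red circles for the 3 knockout-labelled ones. Groups are apart for 33 genes, 25 with the red points on the right and 8 with them on the left, and overlap for Fanca, Fancf, Rad54b, Mre11a, Rbbp8 and Atrip.

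Levels can be compared between genes per kilobase of the principal transcript. On that scale Msh6 (54.0 CPM per kilobase in control), Rpa3 (34.3), Topbp1 (34.0), Rad50 (26.4) and Mre11a (25.8) led in control, and Fancl (1.47), Fancm (1.65) and Palb2 (1.84) were lowest. In the knockout-labelled libraries Msh6 (55.8), Topbp1 (47.2) and Rpa1 (39.04) led, and Fancg (1.80), Rad51c (1.95) and Rad51b (2.01) were lowest. Counted from the highest of the 39, Rad51b moved from place 23 to 37 and Rad51c from 26 to 38, while Fancm moved from 38 to 32 and Palb2 and Fancl, from 37 to 34 and from 39 to 36, stayed near the low end.

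The length of the transcript differed between members that rose and fell. The 24 genes that rose had a median principal transcript of 4.84 kb (range 1.81 to 10.7 kb), and the 8 that fell had a median of 2.52 kb (range 0.67 to 5.15 kb). Across the 12552 tested protein-coding genes, which are not independent replicates, Spearman's rho between length and log2 fold change was 0.159, and across the 39 members it was 0.398. Of the 3134 longest of these genes 47.3% rose and 35.7% fell, and of the 3144 shortest 22.0% rose and 51.2% fell. Among the longest are 15 of the 39 members and among the shortest 3. The part of transcript length in the members' direction was not tested.

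Windows of 300 bases around the start were matched by symbol for 31 of the 39 genes, 34 windows in all, from RefSeq on GRCm38.p6. Fancd2, Rad51d, Xrcc2, Rad54b, Rad50, Nbn, Rbbp8 and Exo1 had no match. The letters TTTGGCGC or TTTCCCGC, forms of the E2F site, were found on either strand in 6 windows (17.6%), all as TTTCCCGC, against 1.56% of all 32851 windows and 2.80% of those of tested genes. These 6 windows belong to Bard1 and Brca2, which rose, to Fancg, Rad51c and Chek2, which fell, and to Msh6. CCAAT was found in 24 windows (70.6%), against 37.4% of all windows and 37.9% of those of tested genes. These were 14 of 21 windows of genes that rose and 5 of 8 windows of genes that fell. All 5 windows of genes that did not pass held it too. Counted by gene, it was in 13 of 20 that rose and 4 of 6 that fell. TTTGAA or TTTAAA was found in 4 windows (11.8%), against 27.6% and 19.4%. None of these motifs contains another, TTTAAA reads the same on both strands and was counted once, and a match describes the letters and not a bound site.

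Other genes of the same pathways, outside the 39, moved in both directions. Of 12 Fanconi-associated genes 5 rose and 3 fell (median log2 fold change 0.25). Faap24, which with FANCM binds DNA, rose from 5.89 ± 0.70 to 17.0 ± 1.53 CPM (SD, n = 3 each) and Usp1, the enzyme that removes ubiquitin from FANCD2, from 82.8 ± 2.76 to 218 ± 6.33 CPM. The gene of the ubiquitin-conjugating enzyme of the pathway, Ube2t, fell from 22.7 ± 1.27 to 10.5 ± 1.504 CPM, and Mad2l2 fell by 1.08 on the log2 scale. Genes of other recombination mediators rose in 9 of 18 cases and fell in 5 (median 0.23). Fignl1 rose by a log2 fold change of 1.43, and Fbh1, a helicase, fell by 0.64 on the log2 scale.

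Of the genes that resolve or dissolve junctions, 10 of 13 rose and 2 fell, with a median of 0.77. Gen1, a Holliday junction resolvase, rose from 13.7 ± 1.00 to 46.6 ± 2.27 CPM (SD, n = 3 each), and Rmi2, a partner of BLM, rose from 3.47 ± 0.85 to 9.87 ± 0.55 CPM. Eme2, a nuclease partner of MUS81, had the largest value of the list (log2 fold change 3.02), but 54.2% of its exon bases lie in Mapk8ip3 or Spsb3. Wrn, a RecQ helicase, fell by 0.82 on the log2 scale. Partners of the BRCA1-A complex and of break chromatin had 6 higher and 3 lower of 13 (median 0.09), led by Rif1 (log2 fold change 1.36), with Uimc1 and Babam2, both of the BRCA1-A complex, lower (-0.57 and -0.48). Partners of the ATR checkpoint had 10 higher and 3 lower of 17 (median 0.44). Hus1, of the clamp loaded at stalled forks, rose from 17.7 ± 1.97 to 45.7 ± 2.27 CPM, and the phosphatase gene Cdc25a rose while Cdc25b and Cdc25c fell (log2 fold changes 1.30, -0.83 and -0.56). Exons of Cdc25c overlap a gene on the opposite strand over 12.7% of their bases.

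The repair routes beside recombination were mixed. Mismatch repair partners had 6 higher and 1 lower of 9 (median 0.39), with Pms2 the leading rise (log2 fold change 1.01). Without control replicate 2, 2 mismatch repair partners were lower. End joining genes had 6 higher and 4 lower of 13 (median 0.27), and 2 were lower without control replicate 3 or any 1 of EphA4 knockout replicates 1, 2 and 3. Polq, the polymerase of end joining at short homologies, rose from 11.9 ± 1.60 to 50.9 ± 2.55 CPM (SD, n = 3 each) and Lig4 by a log2 fold change of 0.86, while Paxx, a factor of classical end joining, fell from 9.92 ± 0.46 to 3.96 ± 0.43 CPM. These lists were chosen with earlier results of the data known, and a share near 32.7% higher and 38.8% lower would be that of all tested genes.

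Markers of proliferation moved with the 39 genes. Of 20 such genes 15 rose, 0 fell and 5 did not pass, with a median log2 fold change of 0.78 and a summed level of 3070 to 3197 CPM in control and 4893 to 4995 CPM in the knockout-labelled libraries. Ccne2, an S phase cyclin, rose from 10.9 ± 2.10 to 49.3 ± 2.50 CPM, Cdc6, a licensing factor, from 24.6 ± 1.89 to 74.9 ± 1.30 CPM and Mki67 from 539.7 ± 20.6 to 923 ± 10.2 CPM (SD, n = 3 each). Top2a, a marker of G2 and mitosis, did not pass, at 822 ± 24.9 and 823 ± 25.9 CPM (log2 fold change 0.00, 95% interval -0.09 to 0.10). Nor did Mcm6, Ccne1, Gins1 and Gins2, genes of replication and S phase entry (log2 fold changes 0.09, -0.03, 0.06 and -0.13). E2F, pocket protein and related cell cycle regulator genes had 12 higher and 3 lower of 17 (median 0.45), with E2f7 (log2 fold change 1.79) and E2f3 (1.21) the leading rises and Rbl2 and Tfdp2 lower (-0.99 and -0.84). Exons of Ccne2, Rbl2 and Gins2 overlap genes on the opposite strand over 17.4%, 21% and 67.3% of their bases. The part of the cell cycle state in the members' values was not tested.

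**Figure D5:**
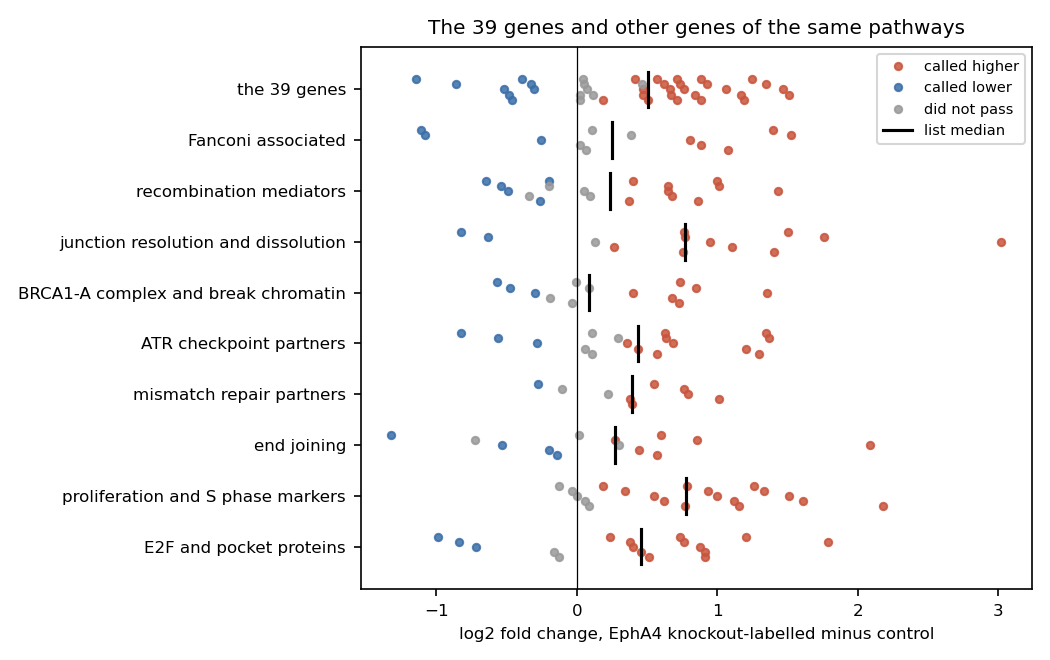
Log2 fold change (x axis, knockout-labelled minus control) of the 39 genes and of the tested genes of 9 other lists, 1 point per gene, coloured by call, with the list median as a black bar. The medians run from 0.09 for break chromatin genes to 0.78 for proliferation markers, and every list but that of proliferation markers holds genes called in both directions.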

How the data were processed

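The deposited file is a single table of raw, unnormalized counts by gene symbol. STAR and the build GRCm39 are named, without versions, per the submitters' processing notes; for the counting step, neither tool nor strandedness nor gene models are stated. The table was used whole: 28042 symbols had a count, and filterByExpr kept 15199. Counts were scaled with TMM factors and tested with edgeR 4.0.16 in R 4.3.3 (quasi-likelihood fit in its earlier form, two-sided test of group with no covariate). Benjamini-Hochberg adjusted p-values over all tested genes at or below 0.05 were called. Standard errors were derived from the log2 fold change and its F statistic. Alternatives used limma 3.58.1 and DESeq2 1.42.0; figures used matplotlib 3.10.9. The script was tested on simulated data with few changed genes, in equal numbers up and down, a setting unlike that of these libraries. Principal transcript lengths, chromosomes and exonic overlaps come from GENCODE M21 on GRCm38, an earlier build than the one named for the counts, so only promoter windows carry coordinates. Of the 39 genes, 19 have exons that overlap another gene model, 8 of them over at least 10% of their bases. All 39 are named. Of other lists, up to 3 called genes with the highest and 2 with the lowest fold change could be named. Mki67, Top2a, Mcm6, Ccne1, Gins1 and Gins2 are named outside that rule, chosen after their values were seen. The members and lists were chosen with earlier results of these data known. Some planned results are not reported here.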

Additional observations from a re-analysis of the deposited data

How the results depend on the processing

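The count of genes called over all tested genes, of members called higher and lower, and of pathway genes called stayed within 1.5 times under every one of 18 alternatives except glmTreat, which tests against a fold of 1.5. Under glmTreat 5473 genes passed in all, 13 of the 39 genes passed as higher and 2 as lower (Rad51b and Rad51c), and 55 pathway genes passed, 48 higher and 7 lower. The median log2 fold change of the 39 genes was 0.44 with no filter and 0.59 when at least 5 CPM was required in 3 libraries, and from 0.49 to 0.66 with 1 replicate left out. That range covers counts of 23 to 26 members higher and 6 to 7 lower, 98 to 107 pathway genes (77 to 85 higher, 21 to 22 lower) and 9887 to 11038 genes in all. With no filter the sign turned for Fanca, Mre11a, Rbbp8 and Msh6 (-0.017, -0.043, -0.044 and -0.021), none of which passed, the median over all tested genes moved to -0.10, and the genes called lower were 2 of the mismatch repair list, 1 of the proliferation list and 5 of the E2F list. Of the 39 genes, 30 kept both their sign and their call under every alternative but glmTreat. Replicate numbers did not pair the samples (correlations of deviations -0.0077, 0.043 and 0.013 for the same number); with the replicate block 23 members rose and 8 fell, the lost call being Fancl (log2 fold change 0.50, adjusted p = 0.095), and 10339 genes were called in all. The fit of edgeR version 4, added after the data were seen, gave 24 and 8. Genes at a few CPM, such as Fancf, Fancg and Fancl, have SEs near 0.2 and differences of that size are not resolved. No separate closer look at single results was made, and the test of outlying samples was not run, since groups of 3 are too small for it.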
